A study of Mus musculus with 10 samples.

Results

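The mitosis and spindle genes are 44 genes whose products carry a cell through mitosis, from the kinase that starts it to the cleavage of the daughter cells. They form a list set by function, with no threshold on a measured value, and each was followed in single Bergmann glial cells, the radial astroglia whose cell bodies lie beside the Purkinje neurons of the cerebellum. Of the 44 genes, 43 had at least 1 probe set with a value in every cell and with that gene alone in the array annotation, among 17919 genes measured this way. Cyclin B1 (Ccnb1) was the gene not measured here.

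Both ages came from the GFAP-GFP reporter line, in which the promoter of Gfap, an intermediate filament gene of astroglia, drives GFP, and from the mid-sagittal cerebellum. Cells were picked by strong GFP and a bushy unipolar shape, 5 at postnatal day 6 (P6) and 5 at postnatal day 30 (P30), and the amplified cDNA of each was hybridised to 1 array. The 10 cells were the best of a larger harvest by tests that required astroglial and low abundance transcripts and no neuronal ones. The study raised the question whether some Bergmann glia still divide at P6, because cell cycle genes were among those with higher expression at that age. No animal is named, so each age was treated as 1 sample. The values are therefore descriptions of 10 cells, with no p-value, and SDs measure the spread between cells of an age, which includes that of amplification. The deposited values are ratios: each probe set was divided by a median of its own, and the median of the 5 P6 cells was exactly 1 in 69.5% of the complete probe sets. A log2 ratio near 0 thus mostly marks a typical P6 cell and says nothing of how abundant a transcript is. The lowest ratio kept is 0.01, so that for a gene with 1 probe set that reaches this floor in P30 cells alone the fold can be larger than computed and is written "at least". Where values at the floor occur at both ages, or in a gene averaged over several probe sets, only the log2 difference is given.

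P6 replicate 5 stood above the other P6 cells in nearly all of these genes, so each comparison of ages is given with and without it. Over 15 astroglial markers the median log2 ratio was between -0.39 and 0.24 in the P6 cells, with P6 replicate 5 at -0.39. It was between -0.43 and 0.54 in the P30 cells. Each probe set is divided by its own median, so other markers lie near 0 too, such as microglia markers at -0.50 to 0.61 at P6. Such ratios therefore cannot show whether a cell is astroglial. Gfap itself varied most among the astroglial markers, between -5.85 and 1.10 at P6, and was at -0.13 in P6 replicate 5.

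Entry into mitosis is set by cyclin B and cyclin A bound to the kinase Cdk1, which phosphatases of the Cdc25 family switch on. Condensins and topoisomerase then compact the chromosomes, Aurora and Polo-like kinases build the spindle, and a checkpoint holds the cell until every kinetochore is attached. The anaphase-promoting complex (APC/C) next destroys securin and the cyclins, and the central spindle directs cleavage. The transcripts of most of these genes peak together shortly before division and are kept low in resting cells by the DREAM complex, which binds cell cycle homology regions in their promoters, beside boxes bound by the factor NF-Y. Bergmann glia arise before birth and some divide in the first postnatal weeks, while the cerebellar cortex expands around them.

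Because these 2 promoter elements are the sequence feature for which the family is known, they were searched in the 250 bases before each transcription start in RefSeq (GRCm38.p6). The cell cycle homology region was taken as TTTGAA or TTCGAA and the NF-Y box as CCAAT, on both strands, with no letters shared between the 2 motifs in the windows printed. The table held 41 starts of 38 of the 44 genes. Bub3, Ect2 and Prc1 have 2 starts each with overlapping windows, so some of their sites are counted from both starts. Of these starts, 16 (39.0%) held a cell cycle homology region, against 17.1% of all 32851 starts. CCAAT was found in 33 (80.5%), against 33.8% of all starts, and 23 (56.1%) held at least 2 such boxes, against 10.1%. All 16 starts with a homology region also held CCAAT, a pair found in 39.0% of these starts and in 6.02% of all. The 6 genes without an entry were Ccna2, Cdc25c, Smc4, Tpx2, Aurkb and Incenp.

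The 4 promoters shown are those with the most matches among genes over 3-fold higher at P6, printed 5′ to 3′ on the strand of the gene and ending at the base before the start, with both motifs in capitals on either strand. All 4 genes lie on the minus strand of GRCm38.p6: Cks1b at chr3:89418292-89418541, Mki67 at chr7:135716380-135716629, Ccnb2 at chr9:70421555-70421804 and Ect2 at chr3:27153855-27154104.
Cks1b: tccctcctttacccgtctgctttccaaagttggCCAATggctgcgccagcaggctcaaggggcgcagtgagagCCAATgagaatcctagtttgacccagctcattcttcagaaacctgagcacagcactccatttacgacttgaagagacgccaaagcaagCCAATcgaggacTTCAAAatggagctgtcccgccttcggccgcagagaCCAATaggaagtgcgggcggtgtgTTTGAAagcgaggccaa
Mki67: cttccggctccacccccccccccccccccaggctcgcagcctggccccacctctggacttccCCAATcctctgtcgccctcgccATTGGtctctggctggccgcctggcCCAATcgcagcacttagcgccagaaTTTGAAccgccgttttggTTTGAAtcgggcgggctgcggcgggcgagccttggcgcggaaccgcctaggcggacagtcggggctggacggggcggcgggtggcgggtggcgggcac
Ccnb2: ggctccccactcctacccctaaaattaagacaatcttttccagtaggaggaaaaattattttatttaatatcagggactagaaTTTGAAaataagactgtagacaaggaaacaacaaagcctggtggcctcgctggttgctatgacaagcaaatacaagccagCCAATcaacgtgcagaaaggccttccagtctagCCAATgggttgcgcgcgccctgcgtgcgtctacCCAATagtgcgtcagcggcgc
Ect2: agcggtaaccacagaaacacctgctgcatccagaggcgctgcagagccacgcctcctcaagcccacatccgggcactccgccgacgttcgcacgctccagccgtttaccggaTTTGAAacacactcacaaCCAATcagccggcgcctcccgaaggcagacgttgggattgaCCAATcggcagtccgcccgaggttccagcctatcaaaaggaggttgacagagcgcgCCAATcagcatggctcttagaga

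The promoter of Cks1b held 4 CCAAT boxes and 2 homology regions, that of Mki67 3 and 2, and those of Ccnb2 and Ect2 3 and 1 each. Over all 41 starts, 50 of 73 CCAAT matches and 11 of 22 homology regions began within 100 bases of the start. Promoters of 53 starts of other mitotic genes, named below, held CCAAT in 60.4% and both motifs in 26.4%, and 18 starts of APC/C core subunits held CCAAT in 27.8% and both in none. In the other lists CCAAT was in 58.8% of 17 starts of brakes of Cdk1, 56.7% of 30 of S phase genes, 41.2% of 17 of regulators of mitotic transcription and 35.7% of 14 of cohesin and other condensin genes, and both motifs were in 5.88%, 13.3%, 17.6% and 14.3%. The homology region alone was counted in 39.6% of starts of other mitotic genes and in 7 of the 14 of cohesin and other condensin genes, the latter a larger share than the 39.0% of the mitosis and spindle genes. A match describes letters in a window and not a bound site.

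**Figure D1:**
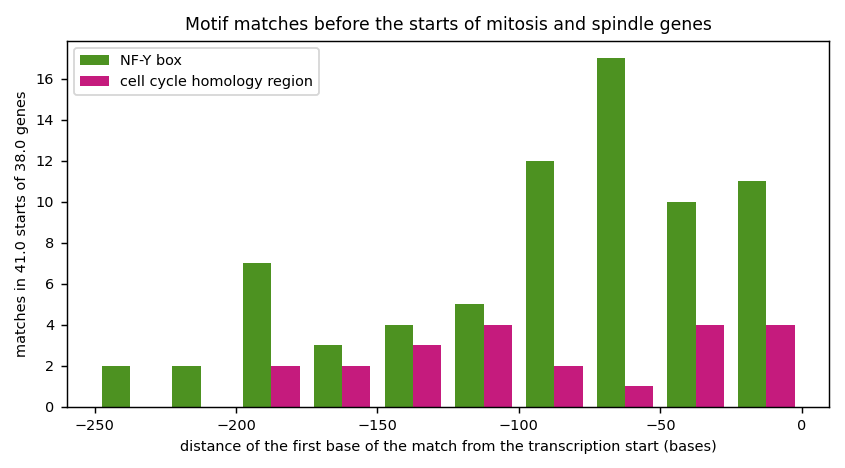
Number of motif matches in the 41 starts of mitosis and spindle genes (y axis) by the distance of the first base of the match from the transcription start in bases (x axis), for the NF-Y box (green) and the cell cycle homology region (magenta). Of the 73 matches to the NF-Y box, some of them counted from both starts of a gene, 50 lie within 100 bases of the start.

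At P6 the mean log2 ratio was higher than at P30 for 41 of the 43 genes and lower for 2 (Smc2 and Anln). The log2 difference (mean at P6 minus mean at P30) had a median of 1.08 over these genes and of 0.05 over all 17919. With a size rule of 3-fold, a log2 difference of 1.58, 17 of the 43 genes (39.5%) were higher at P6, against 9.39% of all genes, and none was higher at P30, against 4.93%. The differences reached from -0.29 for Smc2 to 5.06 for Ccnb2. Just inside the size rule were Nuf2 at 1.62 and Mad2l1 at 1.70, and just outside were Cenpf at 1.46 and Ube2c at 1.39. Pttg1 was the only gene whose lowest P6 cell exceeded its highest P30 cell, a pattern seen in 2.13% of all genes, and none had the reverse, against 1.41%.

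Without P6 replicate 5 the differences were smaller. The median became 0.27, against 0.06 over all genes, 27 genes stayed above 0 and 16 lay below. Of the 17 genes, 11 were still over 3-fold higher in the other 4 P6 cells, against 9.67% of all genes, and no gene came in. The 6 genes that dropped out were Cdc25c, Aurka, Aurkb, Birc5, Mad2l1 and Nuf2.

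**Figure D2:**
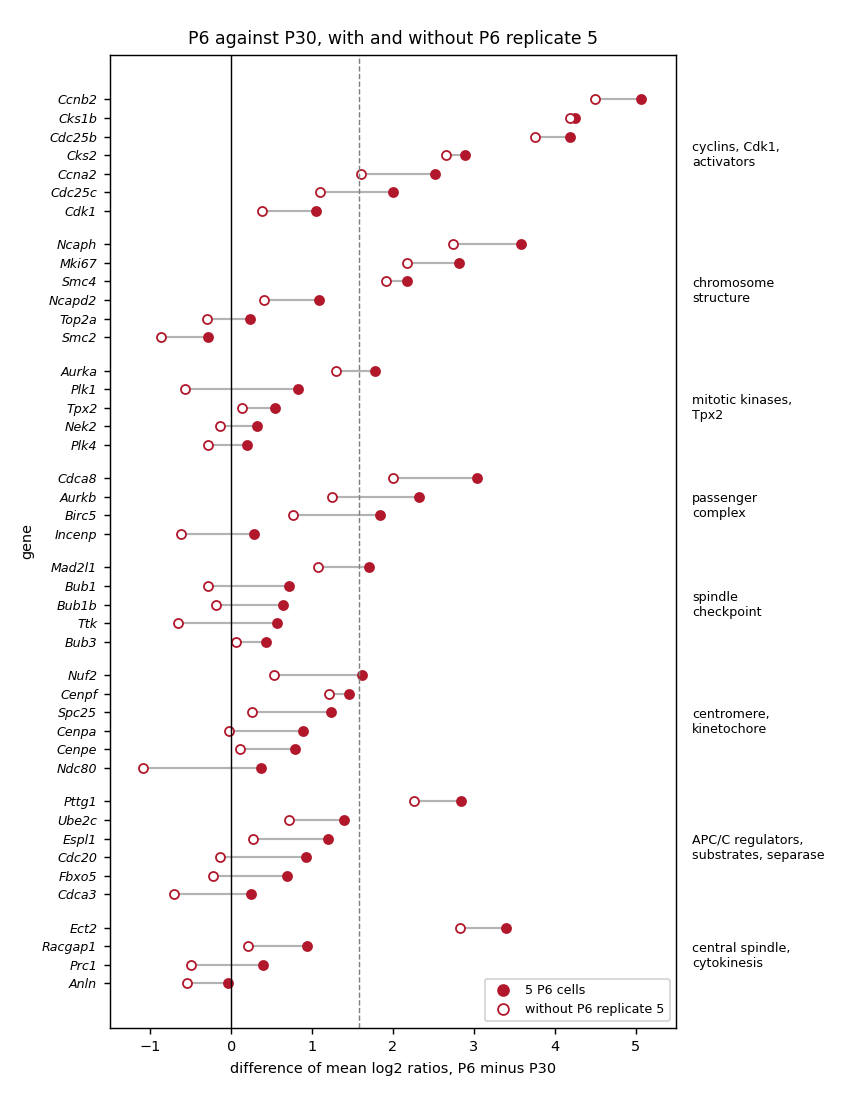
Log2 difference, mean at P6 minus mean at P30 (x axis), of each gene, grouped by role, over all 5 P6 cells (filled) and without P6 replicate 5 (open). The dashed line marks 3-fold, which 17 filled and 11 open points pass.

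Among Cdk1 and its regulators, 6 of 7 measured genes, all but Cdk1, passed the size rule at P6, with a median difference of 2.89. It was the highest median of the 8 roles, except with ratios of arithmetic means, where it was 3.64 against 4.23 for the chromosomal passenger complex. Without P6 replicate 5 the count was 5 of 7 and the median 2.65. For this and each later role, the share of all genes past the rule at P6 was 9.39%, or 9.67% without that cell. Roles hold few genes, so a count of 1 gene past the rule says little of a role. Values of single genes are given as log2 ratios of replicates 1 to 5 in order.

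Ccnb2 encodes cyclin B2, a partner of Cdk1 in mitosis. Its log2 ratios were 0.00, 1.59, -4.94, -0.48 and 1.87 at P6 and -4.99, -5.84, -4.16, -5.65 and -6.64 at P30. P6 replicate 3 lay within the P30 range, and the other 4 P6 cells were far above every P30 cell. The P6 mean was -0.39 ± 2.73 and the P30 mean -5.46 ± 0.93 (SD, n = 5 cells), at least 33.4-fold, with a difference of 4.50 without P6 replicate 5.

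Cks1b and Cks2 encode the small subunits that bind Cdk1. For Cks1b the log2 ratios were -0.01, 0.87, -0.86, 0.00 and 0.30 at P6 and -5.23, -5.22, 0.13, -5.22 and -5.41 at P30. All P6 cells were close together, P6 replicate 5 among them, and a single P30 cell, replicate 3, was at the P6 level. The log2 difference of 4.25 was 4.19 without P6 replicate 5. Its 2 probe sets differed by 5.32, with values at the floor at P30, and by 3.18, with none, and the ratio of arithmetic means, to which P30 replicate 3 contributes most at P30, was 2.23 on the log2 scale. For Cks2 the log2 ratios were -1.45, 0.00, -1.67, 0.44 and 0.52 at P6 and -6.11, 0.74, -3.08, -2.62 and -5.55 at P30. P30 replicate 2 was above every P6 cell, and the other 4 P30 cells were below all P6 cells. The means were -0.43 ± 1.05 and -3.32 ± 2.73 (SD, n = 5 cells), a log2 difference of 2.89. The probe set with values at the floor differed by 3.76 and the one with none by 2.01, and the ratio of arithmetic means was 1.17 on the log2 scale, under the size rule.

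Cdc25b and Cdc25c encode phosphatases that remove inhibitory phosphates from Cdk1. Cdc25b was at -3.55, 1.77, -2.06, 0.00 and 1.22 at P6 and -3.59, -6.30, -2.87, -5.69 and -5.12 at P30. P6 replicates 2 to 5 were above all P30 cells and replicate 1 lay among them, and the log2 difference was 4.19 (18.2-fold), or 3.75 without P6 replicate 5. Cdc25c was at 2.39, -0.17, -0.87, -2.40 and 4.24 at P6 and -1.90, -0.55, -1.45, -1.86 and -1.06 at P30. Only P6 replicates 1, 2 and 5 were above all P30 cells, and the log2 difference was 2.00 with replicate 5 and 1.10 without it.

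Ccna2, the cyclin A of S phase and early mitosis, was at 1.48, 0.06, -0.51, 0.00 and 4.80 at P6 and -1.07, -0.93, -2.10, -0.31 and -2.34 at P30. P6 replicate 5 was far above every other cell, replicate 1 came next, and the ages overlapped at the lowest P6 cell. The difference of 2.52 (5.72-fold) was 1.61 without replicate 5, close to the size rule. Cdk1, the kinase itself, was at 3.35 in P6 replicate 5 and between -0.64 and 0.91 in the other 9 cells, and its log2 difference between ages was 1.05.

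Genes of chromosome structure were split, with 3 of 6 past the size rule at P6 and a median difference of 1.63, or 1.16 and the same count without P6 replicate 5. Ncaph, a subunit of condensin I, was at -4.52, -5.39, -0.14, 0.58 and 1.84 at P6 and -4.78, -5.84, -5.82, -5.64 and -3.46 at P30. P6 replicates 3, 4 and 5 were above all P30 cells and replicates 1 and 2 lay among them. The log2 difference was 3.58, or 2.74 without P6 replicate 5, and it was 2.78 in the probe set with no value at the floor.

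Mki67 encodes Ki-67, the coat protein of mitotic chromosomes that is used to mark cycling cells. Its log2 ratios were 2.25, -3.48, -3.39, 0.00 and 2.07 at P6 and -4.06, -3.36, -3.87, -2.01 and -3.35 at P30. P6 replicates 1, 4 and 5 were above all P30 cells, while replicates 2 and 3 were at the P30 level. The means were -0.51 ± 2.81 and -3.33 ± 0.80 (SD, n = 5 cells), a difference of 2.82 (7.07-fold), or 2.18 without replicate 5.

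Smc4, an ATPase subunit of condensin, was at -0.90, -0.13, 0.50, -3.65 and 0.27 at P6 and -4.34, -2.07, -3.74, -3.21 and -1.40 at P30. P6 replicate 4 lay among the P30 cells and the other 4 P6 cells above them, with a log2 difference of 2.17 that was no bound because values at the floor occurred at both ages. Its 3 probe sets did not move alike, with differences of 4.34, 2.12 and 0.06, and the gene was under the size rule without probe sets at the floor, at 1.09.

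Ncapd2, a second condensin I subunit, was at 0.34, -2.04, 1.74, -1.47 and 3.03 at P6 and -2.45, -1.51, -1.05, -0.76 and 1.96 at P30. P6 replicate 5 was highest, followed by P30 replicate 5 and P6 replicate 3, so the ages overlapped, and the difference was 1.08. Top2a, the topoisomerase that untangles chromosomes, differed by 0.24 and Smc2 by -0.29, although both were highest of all 10 cells in P6 replicate 5, at 2.72 and 1.72.

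Among the mitotic kinases and Tpx2, 1 of 5 genes was over 3-fold higher at P6, the median difference was 0.54, and without P6 replicate 5 it was -0.14 with no gene over 3-fold. Aurka, the kinase of the spindle poles, was at -0.03, -3.20, -3.25, 0.21 and 0.81 at P6 and -2.21, -2.57, -2.04, -3.08 and -4.43 at P30. P6 replicates 1, 4 and 5 were above all P30 cells and replicates 2 and 3 were within the P30 range, for a difference of 1.78 (3.42-fold), or 1.30 without replicate 5.

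Plk1, the Polo-like kinase that acts at centrosomes, kinetochores and the cleavage furrow, was at -2.18, 0.38, -0.51, -1.32 and 6.04 at P6 and -0.07, -0.07, -0.19, -0.08 and -1.31 at P30. P6 replicate 5 alone was high. It was 124-fold above the median of the other P6 cells, and the difference between ages of 0.82 became -0.57 without it. Tpx2, the activator of Aurora A, and the centrosome kinases Plk4 and Nek2 differed by 0.54, 0.19 and 0.31, and each was highest of all 10 cells in P6 replicate 5.

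The chromosomal passenger complex, which corrects wrong attachments and then moves to the cleavage plane, had 3 of 4 genes past the size rule at P6 and a median difference of 2.08. Without P6 replicate 5 the count was 1 of 4 and the median 1.01. Cdca8, or borealin, was at 2.90, -2.21, -3.46, -3.80 and 3.57 at P6 and -5.04, -2.66, -3.61, -3.42 and -3.48 at P30. P6 replicates 1 and 5 were both high and far from every other cell of either age, and P6 replicates 3 and 4 were as low as P30 cells. The log2 difference of 3.04, with values at the floor at both ages, was 2.00 without replicate 5.

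Birc5, or survivin, which anchors the complex to centromeres, was at 2.52, 0.00, -3.25, -0.62 and 5.04 at P6 and -0.35, -0.71, -2.10, -0.96 and -1.40 at P30. Replicates 1 and 5 again were the 2 highest P6 cells, with replicate 3 below all P30 cells. The difference was 1.84 (3.59-fold) and 0.77 without replicate 5. Aurkb, the kinase of the complex, was at -4.39, -0.51, -3.81, 0.30 and 3.28 at P6 and -3.03, -3.42, -4.02, -2.35 and -3.90 at P30. P6 replicates 2, 4 and 5 were above all P30 cells, and the difference of 2.32 was 1.24 without replicate 5. Incenp, the scaffold, was at 3.48 in P6 replicate 5 and at most 0.30 elsewhere, with a difference of 0.28.

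For the spindle checkpoint, 1 of 5 genes was over 3-fold higher at P6, and the median difference of 0.64 was -0.19 without P6 replicate 5. Mad2l1, which blocks the APC/C until chromosomes are attached, was at 0.85, 0.00, -1.03, -0.96 and 2.87 at P6 and -1.45, -0.96, -1.56, -1.22 and -1.60 at P30. P6 replicate 5 was highest, replicates 1 and 2 came next, and replicates 3 and 4 were close to the highest P30 cell at -0.96. The difference was 1.70 (3.26-fold), or 1.07 without replicate 5. The kinases Bub1 and Ttk and the checkpoint proteins Bub1b and Bub3 differed by 0.71, 0.56, 0.64 and 0.43. In P6 replicate 5 they were 22.2-fold, 66.8-fold, 18.6-fold and 4.3-fold above the median of the other P6 cells, and without that cell 3 of these 4 differences were below 0.

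Centromere and kinetochore genes had 1 of 6 genes over 3-fold higher at P6. Their median difference was 1.06, or 0.18 without P6 replicate 5. Nuf2 and Ndc80 encode partners in the complex that grips microtubules. Nuf2 was at 0.71, 0.00, -0.81, -0.47 and 5.31 at P6 and -1.47, -0.03, 0.47, -1.31 and -1.02 at P30. P6 replicate 5 was apart from the other 9 cells, which were between -1.47 and 0.71, so that the difference of 1.62 (3.07-fold) was 0.53 without it. Ndc80 was at 0.39, -0.40, -0.27, 0.00 and 7.23 at P6 and 1.04, 0.24, 1.30, 0.93 and 1.63 at P30. Here P6 replicate 5 was 165-fold above the median of the other P6 cells, the largest such value among the 43 genes, while the P30 cells were above most of the other P6 cells. The difference between ages was 0.36 with that cell and -1.10 without it.

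Spc25, which belongs to the same complex, was at 4.78 in P6 replicate 5 and between -0.73 and 0.08 in the other 9 cells. Cenpa, the histone variant that marks centromeres, was at 3.77 there and at most 0.29 elsewhere, and the kinetochore motor Cenpe was at 1.60 there and at most -0.84 elsewhere. Cenpf, a large protein of the outer kinetochore, was one of 4 genes under the size rule in that cell, at 0.01 against 0.11 in P6 replicate 2, and its difference of 1.46 was 1.21 without replicate 5.

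Of the genes of anaphase, 1 of 6 passed the size rule at P6, with a median difference of 1.06 and of 0.06 without P6 replicate 5. Pttg1 encodes securin, the inhibitor of separase. Its log2 ratios were -0.14, -0.26, -3.16, -2.01 and 1.52 at P6 and -3.57, -4.07, -3.37, -3.27 and -4.00 at P30. The lowest P6 cell, replicate 3, was just above the highest P30 cell, replicate 4. The means were -0.81 ± 1.81 and -3.66 ± 0.36 (SD, n = 5 cells), a log2 difference of 2.85, or 2.26 without replicate 5 and 1.75 without the probe set that reached the floor.

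Ube2c, the ubiquitin-conjugating enzyme of the APC/C, was at 0.00, 3.70, -1.15, -0.98 and 3.79 at P6 and -0.49, -0.20, -0.56, -0.35 and 0.01 at P30. P6 replicates 2 and 5 were both high and the other 3 P6 cells were within or below the P30 range, for a difference of 1.39. Cdc20, the activator of the APC/C, was at 5.02 in P6 replicate 5 and between -0.89 and 0.25 in the other cells. Its inhibitor Fbxo5 was at 4.52 against at most 0.57 elsewhere, and the protease separase (Espl1) at 4.45 against at most 1.08. Cdca3, a regulator of mitotic entry that the APC/C destroys, was at 2.91 against at most -0.32. Each of these 4 was highest of the 10 cells in P6 replicate 5.

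Of the genes of the central spindle and cytokinesis, 1 of 4 was over 3-fold higher at P6, with and without P6 replicate 5, and the median difference of 0.66 became -0.15 without it. Ect2, which activates RhoA at the cleavage plane, was at -3.47, -0.33, 0.27, -4.72 and 0.82 at P6 and -4.41, -2.99, -6.64, -3.81 and -6.59 at P30. P6 replicates 2, 3 and 5 were above all P30 cells, whereas replicates 1 and 4 were within the P30 range, and the fold was at least 10.6-fold. The difference was 3.40, or 2.82 without replicate 5. Prc1, which bundles central spindle microtubules, was at 4.33 in P6 replicate 5 and at 2.23 in P30 replicate 4, the next highest cell. Racgap1, its partner in the central spindle, was at 2.78 and 0.65 in the same 2 cells, and Anln, which links actin to the furrow, was at 1.26 and -0.06.

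**Figure D3:**
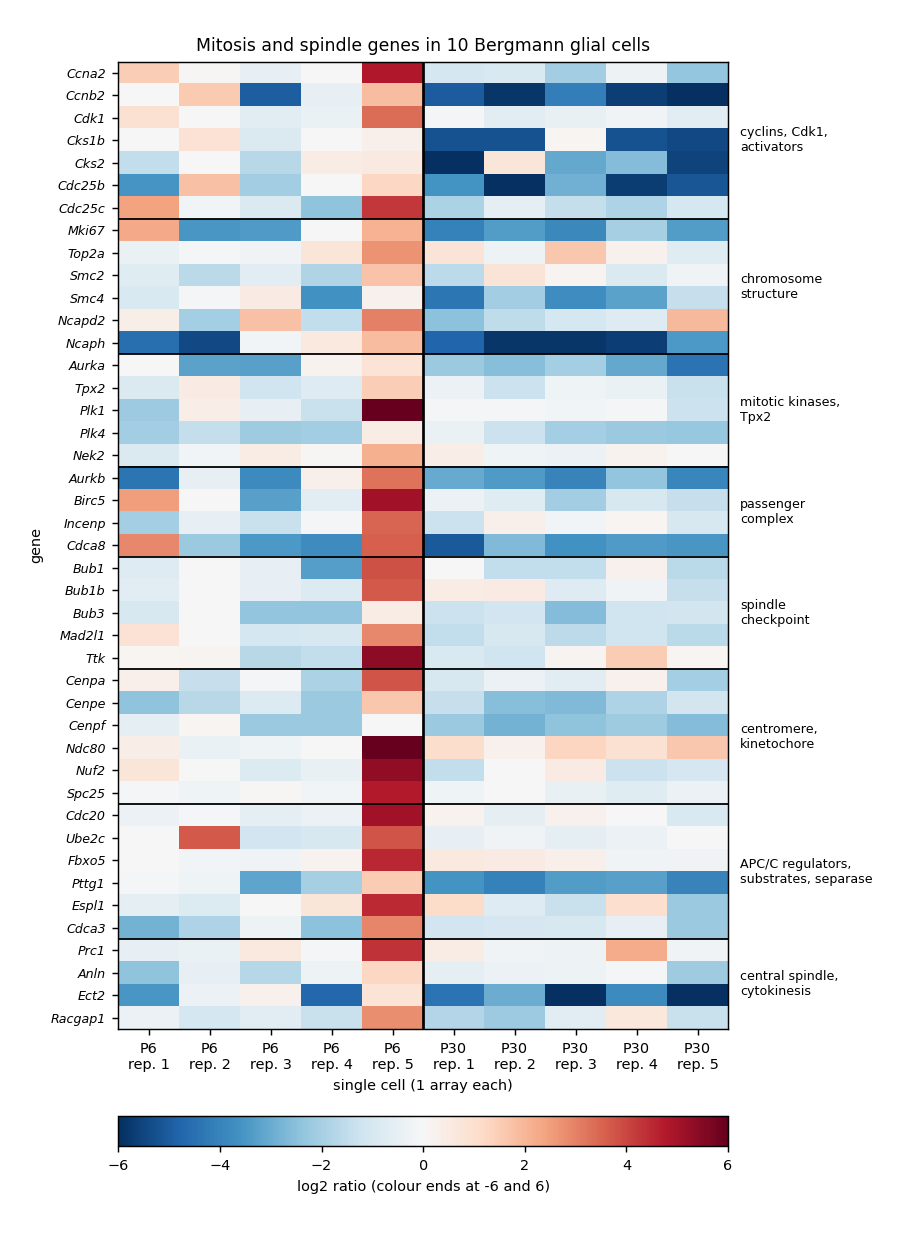
Log2 ratio (colour) of each of the 43 genes (rows, grouped by role) in each of the 10 cells (columns, 5 at P6 and 5 at P30). The column of P6 replicate 5 is red in nearly every row, and blue rows at P30 mark genes such as Ccnb2, Cks1b, Cdc25b and Ncaph.

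Next, a deviation was taken for each cell: its log2 ratio minus the median log2 ratio of its 4 companions at that age. In P6 replicate 5, 39 of the 43 genes (90.7%) were over 3-fold above that median, against 11.9% of all genes, and none was over 3-fold below, against 9.36%. The median deviation over these genes was 3.77 on the log2 scale, against -0.15 over all genes. Deviations were between 0.31 for Cks1b and 7.37 for Ndc80. Smc4, Cks2 and Cenpf were the other 3 genes under the size rule, at 0.78, 1.24 and 1.42. The cell was the highest of all 10 for 37 genes, against 8.23% of all genes, and the highest P6 cell for 38, against 15.6%. In this cell 21 genes were over 16-fold above, against 2.3% of all genes. Of the 43 genes, 31 were among the 1000 genes, out of all 17919, with the largest deviations in this cell.

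The farthest above in P6 replicate 5 came from several roles: the kinetochore gene Ndc80 (165-fold), the kinase genes Plk1 (124-fold) and Ttk (66.8-fold), the passenger complex genes Cdca8 (85.2-fold), Aurkb (43.4-fold) and Birc5 (41.0-fold), the kinetochore gene Nuf2 (46.6-fold) and the APC/C activator Cdc20 (41.6-fold). By role, the median deviation was highest for the passenger complex at 5.40, followed by centromere and kinetochore genes at 4.70, anaphase genes at 4.68, the spindle checkpoint at 4.21, chromosome structure at 3.24, cytokinesis at 3.18, mitotic kinases and Tpx2 at 2.42, and Cdk1 and its regulators at 2.26. These medians use genes averaged over probe sets, and the probe sets of some genes disagreed in this cell. Those of Top2a deviated by 8.36, 1.52 and -1.06. Those of Tpx2 reached from -2.90 to 6.72 and those of Nek2 from -0.47 to 4.99. Whether the order of roles depends on this averaging was not tested. The genes with the largest differences between the ages, Ccnb2, Cks1b and Cdc25b, deviated less in P6 replicate 5, by 2.11, 0.31 and 2.26.

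The other P6 cells had 4, 4, 4 and 3 of the 43 genes over 3-fold above, in replicates 1 to 4, against 10.2%, 11.0%, 10.5% and 9.63% of all genes. They had 9, 5, 14 and 13 genes over 3-fold below, against 9.62%, 12.4%, 10.6% and 10.7%. Their median deviations were -0.16, -0.11, -1.01 and -0.82. In replicate 1 the 2 farthest above were Cdca8 at 5.74 and Mki67 at 3.94, in replicate 2 Ube2c at 4.19 and Cdc25b at 2.81, in replicate 3 Ncapd2 at 2.30 and Ect2 at 2.17, and in replicate 4 Ncaph at 2.91 and Aurkb at 2.46. Since P6 replicate 5 is part of the median for each of them, the counts above were also taken without it. They were then 11, 10, 4 and 6, against 11.4%, 11.8%, 11.5% and 10.8% of all genes. The median deviations without it were 0.06, 0.62, -0.41 and -0.40, so the signs of the first 2 depend on that cell. The counts below were not taken again.

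Among P30 cells the counts over 3-fold above were 3, 2, 4, 8 and 3 in replicates 1 to 5, against 12.8%, 11.5%, 12%, 9.44% and 11.8% of all genes. The 8 genes in P30 replicate 4 were Prc1, Racgap1, Espl1, Ttk, Bub1, Cks2, Ect2 and Mki67, from 2.44 for Prc1 to 1.60 for Mki67. Over 3-fold below were 3, 1, 1, 0 and 5 genes, against 9.61%, 11.4%, 10.6%, 15.1% and 9.65%. P30 replicate 5 had the lowest median deviation of its age over these genes, -0.48, against -0.30 over all genes.

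**Figure D4:**
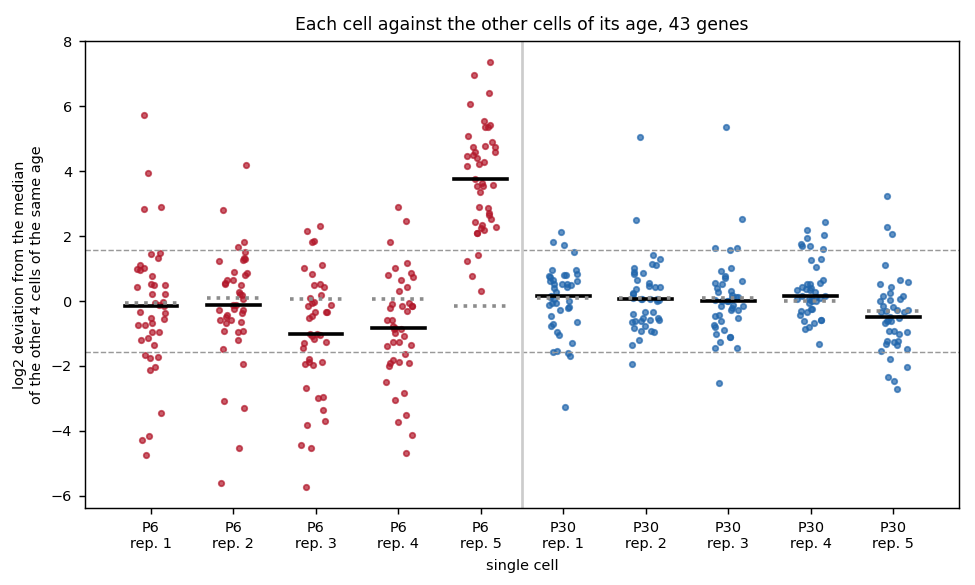
Log2 deviation of each of the 43 genes from the median of the cell's 4 companions at that age (y axis), for each cell (x axis), with the median over these genes (black bar) and over all 17919 genes (grey dots). Dashed lines mark 3-fold. In P6 replicate 5 the median is 3.77 and 39 points lie above the upper line.

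Most genes have several probe sets, which are separate measurements of the same amplified cDNA. P6 replicate 5 was the highest P6 cell in 71 of 96 probe sets of these genes (74.0%), against 15.1% of all complete probe sets. Of the 30 genes with several probe sets, this cell was highest in all of them for 16 and in none for 1. The difference between the ages was less uniform, as all probe sets lay above 0 in 18 genes and on both sides of 0 in 12. For Pttg1 the 3 probe sets differed by 5.04, 2.59 and 0.92, and P6 replicate 5 was 4.32 above the median of the other P6 cells in the last of these and 1.13 in the first.

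Other lists of the pathway were read in the same way. Over all genes, 11.9% were over 3-fold above in P6 replicate 5 and 9.39% were over 3-fold higher at P6. Of 57 further mitotic genes, such as kinesins, centromere proteins and spindle factors, 13 were higher at P6 by the size rule and 1 was higher at P30, with a median difference of 0.63. Without P6 replicate 5 these became 5, 2 and -0.01. In that cell 40 of the 57 were over 3-fold above the other P6 cells, and their median deviation was 3.46, next to the 3.77 of the 43 genes. The 2 with the largest differences were Pbk, a mitotic kinase gene, at 4.55, and Cdkn3, a phosphatase gene that acts on Cdks, at 2.75, both with values at the floor at both ages. Pbk was at 0.47, -0.70, -6.64, -4.07 and 0.49 at P6 and -6.64, -6.64, -6.64, -6.64 and -6.64 at P30. Every P30 cell was at the floor and so was P6 replicate 3.

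S phase genes copy the DNA before mitosis. Of 29 measured, 14 passed the size rule with higher values at P6 and 1 at P30, with a median difference of 1.57, and 10 and 1 without P6 replicate 5, with a median of 1.13. In P6 replicate 5 their median deviation was 1.94 and 16 were over 3-fold above, while P6 replicate 3 was also above the others at a median of 0.67. The 2 largest differences were those of the DNA ligase gene Lig1 and the replicative helicase gene Mcm5. Lig1 was at 0.00, -3.41, 1.46, -4.24 and 1.10 at P6 and -4.90, -4.63, -4.87, -4.66 and -5.40 at P30. All P6 cells were above all P30 cells, replicate 4 by the least, for a difference of 3.87 (14.7-fold). Mcm5 was at -1.85, -0.30, 0.42, 0.11 and -0.09 at P6 and -4.23, -4.22, -4.54, -4.59 and -2.76 at P30. The ages again did not overlap, for a log2 difference of 3.72, and P6 replicate 5 was at the median of the other P6 cells. Its probe sets differed by 5.74, 5.67 and -0.24.

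The other lists had lower medians in P6 replicate 5. For 16 APC/C core subunits, which carry out the destruction of mitotic proteins, the median deviation in that cell was 0.31 with 2 genes over 3-fold above, and the median difference between ages was 0.77 with 1 gene over 3-fold higher at P6, Anapc5, at a log2 difference of 2.40. Anapc4 came next at a log2 difference of 1.41. For 17 genes of cohesin and of other condensin parts the median deviation was 0.84, 6 were over 3-fold above in P6 replicate 5, and the largest differences between ages were 1.72 for the condensin subunit Ncapg and 1.27 for sororin (Cdca5). Ncapg was at 4.73 in P6 replicate 5 and at most 0.72 elsewhere.

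The 15 brakes and phosphatases of Cdk1 signalling had a median deviation of 0.38 in P6 replicate 5, with 5 over 3-fold above, and 1 was over 3-fold higher at P6. The gene was Ppp2r2d, a regulatory subunit of the phosphatase PP2A, at a log2 difference of 4.10. Its relative Ppp2r2a differed by -1.28. Among 15 regulators of mitotic transcription, of the DREAM and MuvB complexes, FoxM1 and NF-Y, the median deviation was 0.43 and 3 genes were over 3-fold above in P6 replicate 5. The 2 largest differences between ages were those of the NF-Y subunit gene Nfyb at 1.69 and of B-Myb (Mybl2), which switches MuvB from repressor to activator, at 1.41. The probe sets of Nfyb disagreed, at 3.51 with values at the floor at both ages and at -0.14 with none. Mybl2 was at 0.35, -0.66, -1.59, -1.19 and 4.50 at P6 and -1.25, -1.24, -0.34, -0.86 and -1.97 at P30. P6 replicate 5 was alone far above the other cells, by 5.43 on the log2 scale over the median of the other P6 cells.

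**Figure D5:**
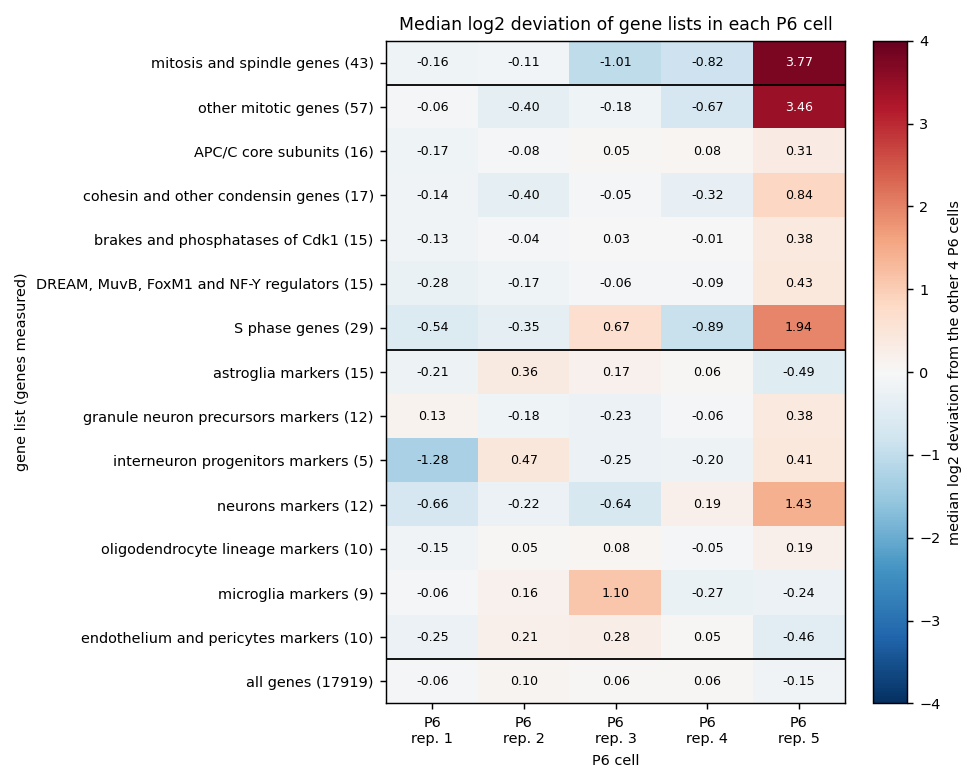
Median log2 deviation from the other 4 P6 cells (colour and printed value) of each gene list (rows, with the number of genes measured) in each P6 cell (columns). P6 replicate 5 is at 3.77 for the mitosis and spindle genes, 3.46 for other mitotic genes and 1.94 for S phase genes, and at 1.43 for neuron markers.

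Markers of other cell types were read in P6 replicate 5 beside these values. Of 12 neuron markers, 5 were over 3-fold above the other P6 cells, against 11.9% of all genes, and the median deviation was 1.43. The 5 markers were Nefm at 7.56, Pvalb at 7.12, Snap25 at 4.24, Stmn2 at 3.63 and Tubb3 at 3.61. The others were Elavl4 at 1.54, Calb1 at 1.33, Dcx at 0.81, Map2 at 0.09, Syt1 at -0.25, Nefl at -1.26 and Pcp2 at -1.55. Cells were chosen by tests that required no Nefl or Map2, and in some cases also checked Tubb3, so these markers were part of the selection. The median log2 ratio of the neuron markers was between -0.64 and 0.99 in the P6 cells, highest in replicate 5, and between -0.91 and 0.57 in the P30 cells. P30 replicates 4 and 5 had Snap25 at 3.61 and 3.83 as well, above the 3.21 of P6 replicate 5.

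Granule neuron precursors are the main dividing cells of the cerebellar cortex at P6. Of 12 genes listed as markers of these precursors, not all of them limited to precursors, 3 were over 3-fold above in P6 replicate 5. They were Sfrp1 at 3.34, Neurod1 at 3.00 and Gli1 at 2.36, against 11.9% of all genes over 3-fold above in that cell. Atoh1, the gene that defines these precursors, was at -0.91 and the median deviation was 0.38. Sfrp1, at 1.33 in P6 replicate 5, was at 1.38 in P6 replicate 3 and between 1.17 and 2.16 in the P30 cells. The median log2 ratio of these markers was between -0.37 and 0.04 at P6, highest in replicate 5, and between -0.68 and 0.24 at P30.

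The median deviations in P6 replicate 5 were 0.41 for 5 interneuron progenitor markers, 0.19 for 10 of the oligodendrocyte lineage, -0.24 for 9 of microglia, -0.46 for 10 of endothelium and pericytes and -0.49 for 15 of astroglia. Of these lists the numbers over 3-fold above were 1, 3, 0, 2 and 1, with Lhx1, Mbp, Pdgfra, Mag, Kdr, Cldn5 and Gfap as the genes. Over 3-fold below were 3 markers of these lists, C1qa of microglia at -1.96, Kcnj8 of pericytes at -2.33 and Aldh1l1 of astroglia at -1.92. Over all genes 11.9% were over 3-fold above in this cell and 9.36% below. The median log2 ratios of these 5 lists in P6 replicate 5 were 0.32, 0.07, -0.50, -0.82 and -0.39. In the P6 cells together they reached from -1.04 to 0.32, from -0.18 to 0.07, from -0.50 to 0.61, from -0.82 to 0.04 and from -0.39 to 0.24, and in the P30 cells from -0.62 to 0.98, from -0.11 to 0.51, from -1.13 to 0.77, from -0.88 to 2.94 and from -0.43 to 0.54. No marker probe set of P6 replicate 5 was at the floor apart from 1 of a neuron marker, but ratios do not show whether a transcript was present. The part of these markers in the high ratios of mitosis and spindle genes was not tested.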

How the data were processed

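Per the study's methods, the authors processed the scanned arrays (Affymetrix whole-genome mouse arrays, 1 per cell) with RMA in GeneSpring GX 7.3, set values under 0.01 to 0.01, scaled each array to its median and then each probe set to a median over samples. The version of RMA is not given in the sources used here. The deposited values are linear ratios of this kind with a highest value of 961.5, so they carry no level, and array signal over background was not analysed here. Precision is limited by the number of arrays.

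Of 45101 probe sets, 1493 with a blank were left out, and 10 values of 0 were set to 0.01. The annotation paired 34958 probe sets with 1 gene, 932 with several and 9211 with none. The log2 ratios of the complete probe sets with 1 gene (33964) were averaged per gene, which gave 17919 genes. Ages were compared by differences of mean log2 ratios with a size rule of 3-fold, and each cell with the median of its 4 companions at that age. Folds are ratios of geometric means. No 2 cells of an age shared more than 0.924% of their values. The averaging per gene, the differences between ages and the deviations of a cell were tested on simulated data in which set differences had been added. The floor, the motif search and the singling out of cells were not tested in this way. Python 3.11.15, NumPy 2.4.6, pandas 2.3.3 and Matplotlib 3.10.9 were used.

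Values in every cell are given for members over 3-fold between ages, members whose ages do not overlap, the largest difference in each role and the 2 members farthest above in each P6 cell, and of each pathway list the 2 genes with the largest difference are named. Other genes were named after their values were seen. The members and lists were chosen with earlier results of these data known. Alternatives were median scaling, a floor of 0.1, probe sets at the floor left out, arithmetic means, medians over cells or probe sets, a set without the cross-hybridising probe sets (suffix _x_at or _s_at), and each cell left out. The per-cell counts without another P6 cell were added after the data were seen. In situ hybridisation, RT-PCR and the Southern blots were not analysed here.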

Additional observations from a re-analysis of the deposited data

Results flagged for a closer look

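In groups of 5 cells, a cell was singled out where its gap to the nearest other cell, divided by the range of the group, was above 0.71. Of 88 groups examined, 15 met this. Chance gives about 1 in 20 for independent groups with normal errors, but these share the same 10 cells, and over all genes 9.58% met it at P6 and 8.94% at P30, against 10 and 4 of the 43 genes (23.3% and 9.3%). In 11 of the 15 the cell was P6 replicate 5, as the highest of its age. The ratio of gap to range was 0.929 for Spc25, 0.914 for Cdc20, 0.902 for Fbxo5, 0.897 for Ndc80, 0.818 for Bub1b, 0.776 for Prc1, 0.759 for Racgap1, 0.751 for Nuf2, 0.74 for Plk4 and 0.739 for Ttk. These 10 genes compare with 1.32% of all genes in which this cell stood apart as the highest. The ratio was 0.826 for the median log2 ratio over all 43 genes, at 2.91 in this cell.

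At P30 the highest cell stood apart for Cks1b, in replicate 3 at a log2 ratio of 0.13, with a gap of 0.966 of the range. The lowest stood apart for Plk1 in replicate 5 at -1.31 (0.906), for Bub3 in replicate 3 at -2.61 (0.853) and for Anln in replicate 5 at -2.12 (0.737). P30 replicate 5 was also the cell in which endothelium and pericyte markers were farthest above the other P30 cells, by a median of 3.42 on the log2 scale, and their part in its low values of Plk1 and Anln was not tested.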

How the results depend on the processing

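None of the 17 mitosis and spindle genes over 3-fold higher at P6 changed sign under any alternative run, and P6 replicate 5 had 36 to 40 genes over 3-fold above the others, with medians from 3.83 to 3.99, whichever other P6 cell was left out. Of results that answer a comparison, 178 stayed within their limits under settings other than leaving out a cell and 15 moved. When a cell was left out, 209 stayed and 21 moved. A value stayed if it shifted by less than the SD between cells, and a count if it changed by no more than a set ratio. These limits are wide. The median difference of 1.08 became 0.27 without P6 replicate 5 and still counted as staying, because that SD was 1.11. Median scaling of the arrays lowered differences by 0.16 on the log2 scale. The count of genes whose ages do not overlap, higher at P6, was 0 under median scaling, a floor of 0.1, probe sets at the floor left out and without cross-hybridising probe sets, and 1 to 4 without 1 cell. With arithmetic means, 31 of the 43 genes were over 3-fold higher at P6. The share and median over all genes under this setting are not given here. Such means weigh the highest cell most, and P6 replicate 5 was the highest P6 cell for 38 genes. Median differences with them were 2.29 over the 43 genes, 4.23 for the passenger complex, 2.35 for the spindle checkpoint and 2.63 for centromere and kinetochore. They were 2.56 for anaphase, 1.58 for other mitotic genes and -0.19 for the DREAM list, which was -0.10 without probe sets at the floor. The brakes of Cdk1 had 0.60 with medians over probe sets, and P6 replicate 3 had 2 genes above with a floor of 0.1. Leaving out 1 cell gave 11 (without P6 replicate 5) to 19 genes over 3-fold higher at P6, median differences of 0.053 to 0.73 for the brakes and -0.053 to 0.81 for the DREAM list, and counts above the other P6 cells of 5 to 11, 4 to 10, 1 to 4 and 1 to 6 in P6 replicates 1 to 4. The causes were not tested. Of these 17, with all cells kept, Mad2l1 and Nuf2 were under 3-fold with median scaling (1.55 and 1.46), and Ccna2, Cdc25c, Birc5, Cdca8, Mad2l1 and Nuf2 with medians over cells (1.13, 1.28, 0.96, 1.26, 1.45 and 1.02). Cdc25c was also under it without cross-hybridising probe sets (0.48), Cks2 with arithmetic means (1.17) and Smc4 with a floor of 0.1 (1.47) and without probe sets at the floor (1.09). Besides P6 replicate 5, leaving out P6 replicate 1 took Cdc25c, Aurka, Birc5 and Mad2l1 under it (1.57, 1.51, 1.40 and 1.58), P6 replicate 4 or P30 replicate 5 Aurka (1.45 and 1.38), and P30 replicate 1, 4 or 5 Nuf2 (1.42, 1.46 and 1.53). The other lists' genes were not run singly. No paired analysis was possible because no test was run and the replicate numbers of the 2 ages name different cells.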
